A study of Nicotiana tabacum with 12 samples.

Results

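KED is a tobacco gene known for its quick induction when a leaf is wounded, and it is described here by its level in leaves that carry or lack an NtYb1 transgene. It was taken as the 1 row of the count table, LOC107827770, that the reference gene table names KED, out of 61526 rows. The gene was selected on its counts in these libraries, ranked by p in the mean of the transgenic lines minus the untransformed plants. It stood at place 11 among the 906 tested genes with a symbol and at place 199 among all 39207 tested genes. Its levels in lines against untransformed plants are therefore given as a description, without a test.

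Leaf RNA was sequenced from field-grown burley tobacco, Nicotiana tabacum cultivar TN90, in 12 libraries. NtYb1 (EGY2) is carried under a 35S promoter, written 35S CMV in the labels, by P2.4a, by P3.9a and by P9.10a, and CK is the untransformed wild type, with 3 biological replicates in each of the 4 groups. The 35S promoter drives expression in most plant cells, and each line descends from 1 primary transformant, so a line is 1 insertion history. The labels' sampling text gives the P3 plant another number than the titles and also describes root inoculation; groups follow the titles and the line field, which name leaf.

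KED is named after lysine, glutamate and aspartate (K, E and D), the charged residues that make up much of its protein. In tobacco its transcript appears early after mechanical wounding. The wound response of tobacco leaves runs through mitogen-activated protein kinases such as WIPK and SIPK, calcium signals and the hormones jasmonate and ethylene, and ends in products such as proteinase inhibitors. The labels describe no wounding of the leaves, so the values are the level of KED in upper leaves frozen before maturity.

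Totals ran from 13536964 to 16788583 counts in the 9 transgenic libraries and from 16657112 to 18444571 counts in CK. P3.9a replicate 1 stood apart on the first principal component (-77.4, against -26.5 to 40.3 in the other 11 libraries) and CK replicate 3 on the second (62.8, against -32.3 to 22.2). Leaf markers were abundant: the summed level of GAPA, GAPB, PSBR, psbS and a pair of Rca copies was 9044 to 14106 CPM in the transgenic libraries and 11024 to 13241 CPM in CK. The root marker TobRB7 was at 0.472 to 1.93 CPM in the transgenic libraries and at 0.737 to 1.22 CPM in CK. CPM is the count scaled to library size, here also by TMM, which evens out differences in library composition.

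KED was lower in every transgenic library than in any CK library. In P2.4a it had 384, 302 and 216 counts in replicates 1, 2 and 3, which is 24.9, 18.9 and 13.7 CPM. P3.9a held 280, 230 and 289 counts, or 18.1, 14.8 and 16.5 CPM. P9.10a held 244, 327 and 227 counts, or 14.4, 21.7 and 17.5 CPM. The CK libraries held 416, 474 and 644 counts, or 25.5, 26.3 and 41.4 CPM. The groups did not overlap, but the margin was narrow: P2.4a replicate 1, the highest transgenic library, lay 0.655 CPM below CK replicate 1, the lowest CK library. Of the 39207 tested genes, 677 (1.73%) had all 9 transgenic libraries below all 3 CK libraries, and KED is 1 of these.

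**Figure D1:**
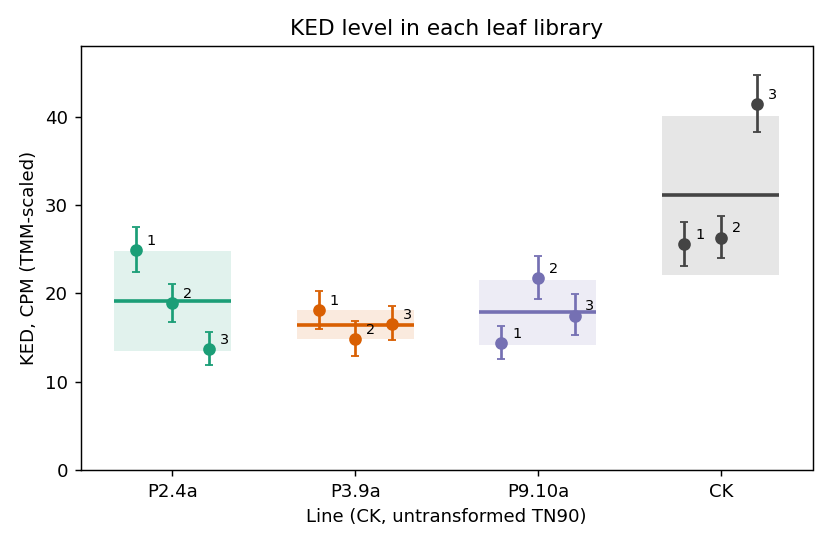
KED level in CPM (y axis) in each library, by line (x axis); points are libraries with their replicate number, whiskers the 95% Poisson counting interval, horizontal bars the group mean and shaded boxes ± 1 SD (n = 3). The 9 transgenic libraries lie between 13.7 and 24.9 CPM and the CK libraries between 25.5 and 41.4 CPM, with CK replicate 3 well above the other CK libraries.

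Group means ran in the order P3.9a, P9.10a, P2.4a, CK. P3.9a averaged 16.5 ± 1.63 CPM, P9.10a 17.9 ± 3.68 CPM, P2.4a 19.1 ± 5.61 CPM and CK 31.1 ± 8.96 CPM (SD, n = 3 each). Over all transgenic libraries the mean was 17.8 CPM. The ranges of the 3 lines overlapped, whereas the lowest CK library lay above the highest library of each line. CK and P2.4a were the least even groups, with coefficients of variation of 28.8% and 29.3%, and P3.9a the most even at 9.89%. Counting error was smaller than this: the counting coefficient of variation of KED was 3.94% to 6.80% per library. In P2.4a the 95% Poisson counting interval was 347 to 424 counts in replicate 1 and 188 to 247 counts in replicate 3, so these replicates of 1 line differed by more than counting error.

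On the fitted log2 scale KED stood at -0.80 in the mean of the 3 lines minus CK (SE 0.18), which is 57.3% of the CK level. The difference was -0.70 in P2.4a (SE 0.23), -0.91 in P3.9a (SE 0.23) and -0.80 in P9.10a (SE 0.23). These differences share the 3 CK libraries, so they are not independent of each other. Over all tested genes the median difference in the mean of the lines was 0.0020, and 1.16% of genes stood as low as KED or lower.

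The size of the difference depended on CK replicate 3, the library with the highest KED level and the one that stood apart on the second component. Without it the CK libraries were at 25.5 and 26.3 CPM, and the difference in the mean of the lines was -0.54 (SE 0.18). The lines then stood at -0.44 in P2.4a (SE 0.21), -0.65 in P3.9a (SE 0.22) and -0.54 in P9.10a (SE 0.22). Without P3.9a replicate 1 the mean of the lines stood at -0.82 (SE 0.19). With both of these libraries left out it was -0.57 (SE 0.18).

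**Figure D2:**
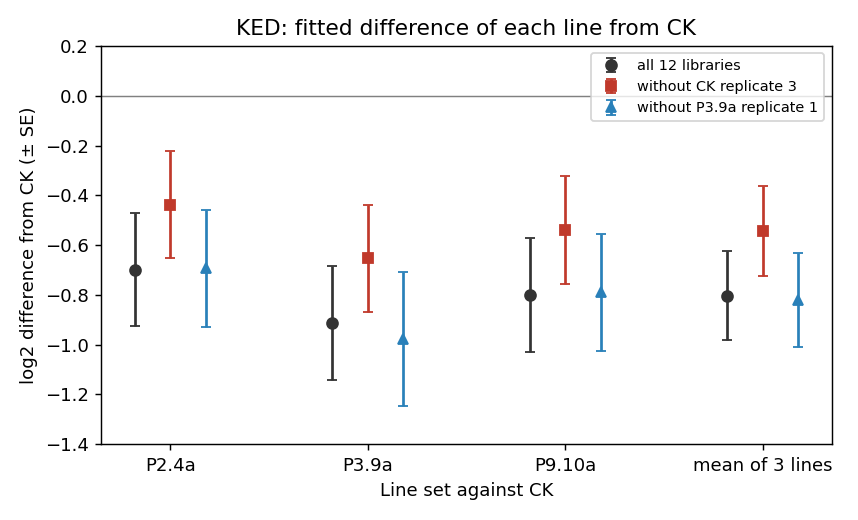
Fitted log2 difference of KED from CK (y axis, ± SE) for each line and for the mean of the 3 lines (x axis), with all 12 libraries and with CK replicate 3 or P3.9a replicate 1 left out. All values are below 0, and leaving out CK replicate 3 brings the mean of the lines to -0.54, against -0.80 with all libraries.

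Differences between the transgenic lines do not involve CK and were not used in choosing the gene, so they were tested. KED did not pass the test among the 3 lines (edgeR quasi-likelihood F test, adjusted p = 1.00 over all genes). An exact permutation test of the F ratio over the 9 libraries, with 1680 assignments, gave p = 0.782. In that comparison 3 of 39207 genes (0.00765%) passed, and 1134 had an unadjusted p under 0.05. P2.4a minus P3.9a was 0.22 (95% interval -0.28 to 0.71; adjusted p = 0.926 in edgeR), P2.4a minus P9.10a 0.10 (-0.40 to 0.60) and P3.9a minus P9.10a -0.11 (-0.61 to 0.39). The intervals leave room for differences between lines of about the size of the differences from CK.

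In the reference gene table no other gene overlaps KED. Its neighbours were counted apart from it, and neither had the full separation of KED. LOC107827771, on one side, had a median of 7.01 CPM in the transgenic libraries (6.18 to 9.86) and lay at 7.74 to 8.88 CPM in CK, a log2 difference of -0.17 (SE 0.14, edgeR adjusted p = 0.701). Of its 9 transgenic libraries 8 lay below all CK libraries and 1 above all of them. LOC107768913, on the other side, had a median of 15.3 CPM in the transgenic libraries (9.78 to 24.6) and lay at 7.40 to 16.3 CPM in CK, with its lowest value in CK replicate 3, where KED was highest (0.25, SE 0.27, edgeR adjusted p = 0.767). Tobacco is an allotetraploid, and whether reads of a near-identical second copy were shared with KED is not known, because the sources used here do not give the counting rule.

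The genes whose profile was most like that of KED were ranked by Pearson's r of log2 CPM over the 12 libraries, among 33205 genes with a mean log2 CPM of 1 or more. These r values are descriptions, since the genes were picked for them and all share libraries and depth. Over all other genes the median r was 0.0075, 1% of genes were above 0.81, and 45 genes reached 0.9. The 6 highest were LOC107777821 (0.97), LOC107805035 (0.96), LOC107769628 (0.95), LOC107802670 (0.95), LOC107832338 (0.95) and LOC107787556 (0.94), none of which has a symbol. Leaving out CK replicates 2 and 3, the libraries farthest from the median of KED, their r ran from 0.86 to 0.91. The list itself was less stable than the values: 4 of the 6 were again among the highest 6 without CK replicate 3, 3 without P3.9a replicate 1, 2 by Spearman's rho and 0 over the 9 transgenic libraries alone.

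LOC107777821 followed KED most closely at a low level. It had 52, 39 and 30 counts in P2.4a, 33, 29 and 45 in P3.9a, 28, 52 and 29 in P9.10a and 51, 68 and 106 in CK. Like KED it was high in P2.4a replicate 1, P9.10a replicate 2 and above all in CK replicate 3, but 2 of its transgenic libraries overlapped CK. LOC107805035 had a much flatter profile of the same shape, with 146 to 175 CPM in the transgenic libraries (median 161 CPM), against 175 to 202 CPM in CK.

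Likeness was also ranked after the mean of each group was subtracted, which removes the difference between lines and CK. By that measure the highest were LOC107761685 (r = 0.97), LOC107805035 (0.96), LOC107799734 (0.95), LOC107774588 (0.94), LOC107794495 (0.94) and LOC107777821 (0.93), and 23 of all genes reached 0.9. LOC107805035 and LOC107777821 stood among the highest 6 by both measures. LOC107774588 is the opposite case: its r over the 12 libraries was 0.58, and its difference in the mean of the lines was -0.04 (SE 0.13).

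Among genes with a symbol, TAF-3 was most like KED by both measures. Its r was 0.93 over the 12 libraries (Spearman's rho 0.88) and 0.86 within groups. TAF-3 stood at 40.0, 33.5 and 30.9 CPM in P2.4a, 28.7, 26.5 and 32.9 CPM in P3.9a, 30.1, 37.3 and 31.7 CPM in P9.10a and 42.4, 44.0 and 50.6 CPM in CK. All 9 transgenic libraries were below CK, as for 677 of the 39207 tested genes (1.73%), KED among them. P2.4a replicate 1 and CK replicate 1 were again the closest pair. Next over the 12 libraries came CCD1, a carotenoid cleavage dioxygenase (0.86), SUT1, a sucrose transporter (0.86), and dnaJ, a co-chaperone (0.85). SUT1 and CCD1 also had all 9 transgenic libraries below CK, at 86.0 to 110 CPM for SUT1, against 138 to 160 CPM in CK. As these genes were picked for a high r with KED over the same libraries, sharing its separation is no further support. Over the 9 transgenic libraries alone the r of these genes with KED was 0.81 for TAF-3, 0.70 for dnaJ, 0.46 for SUT1 and 0.45 for CCD1.

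Within groups the next genes with a symbol were NPR1, a co-activator of salicylic acid responses (r = 0.84), TIMPb, a proteinase inhibitor also named PI-Ia (0.81), and GAPC1, a cytosolic glyceraldehyde-3-phosphate dehydrogenase (0.80). TIMPb is a product of the wound response and the listed gene most like KED. It had 90, 75 and 52 counts in P2.4a, 95, 67 and 110 in P3.9a, 74, 124 and 40 in P9.10a and 114, 123 and 193 in CK. In P2.4a, P9.10a and CK the library highest in KED was also the highest in TIMPb. In P3.9a it was replicate 1 for KED and replicate 3 for TIMPb. Over the 12 libraries r was 0.83 and rho 0.78, and r was 0.67 without CK replicates 2 and 3 and 0.61 over the transgenic libraries alone.

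**Figure D3:**
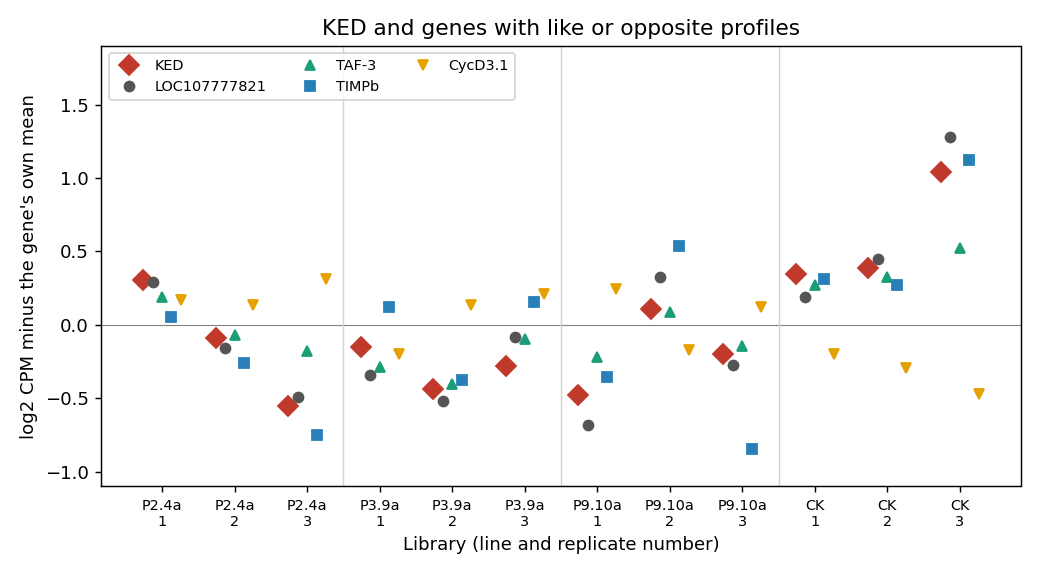
Log2 CPM minus each gene's own mean (y axis) in the 12 libraries (x axis) for KED, LOC107777821, TAF-3, TIMPb and CycD3.1. KED, LOC107777821, TAF-3 and TIMPb are highest in CK replicate 3, where CycD3.1 is lowest.

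Markers of dividing cells ran opposite to KED. CycD3.1, a D-type cyclin, had 33.2, 32.4 and 36.6 CPM in P2.4a, 25.7, 32.4 and 34.2 CPM in P3.9a, 35.0, 26.2 and 32.2 CPM in P9.10a and 25.7, 24.1 and 21.2 CPM in CK. All 9 transgenic libraries lay above CK, which held for 353 of the 39207 tested genes, with P3.9a replicate 1 and CK replicate 1 almost level. Its difference was 0.43 (SE 0.12, edgeR adjusted p = 0.163) and did not pass. The r of CycD3.1 with KED was -0.83 over the 12 libraries (rho -0.82), -0.72 within groups, -0.62 without CK replicates 2 and 3 and -0.48 over the transgenic libraries. CycB1, a B-type cyclin, had an r of -0.76 (rho -0.75), of -0.90 within groups and of -0.59 without CK replicate 3. Its difference was 0.47 (SE 0.35, edgeR adjusted p = 0.681), and 4 of 9 transgenic libraries lay above CK. Both matched markers of the dividing-cell list were detected in every library, and their summed level was 28.8 to 47.2 CPM in the transgenic libraries and 23.4 to 31.1 CPM in CK. In these bulk samples fewer cells of a type and less RNA per cell cannot be told apart, and the part of dividing cells in the KED difference was not tested.

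Other markers were mixed: within groups, r with KED was about as strong for SEO1 (negative) and PSBR (positive) as for CycD3.1. The sieve element genes SEO1 and SEO2 had an r of -0.73 and -0.67 with KED, which was -0.49 and -0.35 without CK replicate 3. Within groups r was -0.75 for SEO1 and -0.37 for SEO2, and over the 9 transgenic libraries it was -0.55 and -0.08. Their summed level was 196 to 235 CPM in the transgenic libraries and 166 to 212 CPM in CK. NtABS, a diterpene synthase of glandular trichomes, had an r of -0.62, but of -0.15 within groups; its level was 61.2 to 136 CPM in the transgenic libraries and 62.4 to 68.9 CPM in CK. The NtABS difference was 0.60 (SE 0.12), which passed in DESeq2 (adjusted p = 0.000218) and not in edgeR (adjusted p = 0.0760). The flower markers FUL1, FUL2 and SOC1 summed to 31.9 to 66.2 CPM in the transgenic libraries and to 48.9 to 53.1 CPM in CK. Their part in the KED difference was not tested. Among leaf markers r with KED ran from 0.10 (GAPB) to 0.74 (PSBR, a photosystem II subunit). The r of PSBR was 0.59 without CK replicate 3, 0.68 within groups and 0.57 over the 9 transgenic libraries.

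The wound response lists held few differences of the size of that of KED. The closest were TIMPb at -0.76 (SE 0.26) and EREBP-4 at -0.74 (SE 0.44), and without P9.10a replicate 2 TIMPb stood at -0.93 and KED at -0.86. EREBP-4 had few counts, 6 to 27 in the transgenic libraries and 10 to 37 in CK, and 4 of 9 transgenic libraries lay below CK in CPM. Besides KED, 49 of 58 genes matched to lists of the wound response could be tested. None passed in the mean of the 3 lines minus CK in edgeR, and none in DESeq2 or limma; over all tested genes 15 passed in edgeR (0.0383%), 12 of them lower (0.0306%). At an unadjusted edgeR p under 0.05 stood 9 of the 49 (18.4%), 1 higher and 8 lower, against 4452 of all genes (11.4%). Their median difference was -0.11, with 37 below 0 and 12 above, beside 0.0020 over all tested genes. Leaving out P3.9a replicate 1 changed this: NtERF#111 (-0.68, SE 0.16, adjusted p = 0.0393) and CaMBP (-0.68, SE 0.16, adjusted p = 0.0468) then passed in edgeR, both lower. In that fit 740 of all 39628 tested genes passed (1.87%), beside 2 of 50 listed genes. With CK replicate 3 left out as well, 0 of 50 listed genes passed, beside 36 of all 39493 tested genes (0.0912%). CaMBP then stood at -0.67 (SE 0.20, edgeR adjusted p = 0.236).

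The list of the early wound kinase route was divided. Of its 12 tested genes 5 stood above 0 and 7 below, with a median of -0.12. Members were matched by symbol, and whether NPK1 (0.32), ntf6 (0.31) and mek1 (-0.47) act in the wound route is not shown here. WIPK, the wound-induced protein kinase, stood at 49, 53 and 57 counts in P2.4a, 68, 43 and 49 in P3.9a, 52, 55 and 30 in P9.10a and 37, 39 and 47 in CK, a difference of 0.38 (SE 0.21, edgeR adjusted p = 0.512). The transgenic libraries overlapped CK, and the sign was opposite to that of KED. The smallest p in the list were those of ntf4, a close relative of SIPK (0.37, SE 0.15, edgeR adjusted p = 0.362), and WIZZ, a wound-induced WRKY factor (-0.42, SE 0.18, edgeR adjusted p = 0.400). WIZZ had 2.06 to 3.69 CPM in the transgenic libraries and 3.56 to 3.72 CPM in CK. Both identifiers named SIPK, the salicylic acid-induced kinase that is also activated by wounding, were close to 0, at -0.13 (SE 0.11) for LOC107772177 and -0.16 (SE 0.10) for LOC107783427. NtMKP1, a phosphatase acting on such kinases, stood at -0.11 (SE 0.15). The r of these genes with KED over the 12 libraries ran from -0.66 (NPK1, at -0.39 without CK replicate 3) to 0.65 (MEK2, the kinase upstream of WIPK and SIPK).

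Jasmonate synthesis genes lay slightly below 0. In this list 5 of 6 tested genes were below 0, with a median of -0.14 and none past the threshold in edgeR. The allene oxide cyclase gene aoc had 45.0 ± 7.92 CPM in P3.9a, 45.8 ± 2.64 in P9.10a, 49.0 ± 1.79 in P2.4a and 55.7 ± 9.53 in CK (SD, n = 3 each), a difference of -0.26 (SE 0.12, edgeR adjusted p = 0.432) that stood at -0.12 without CK replicate 3. AOS, the allene oxide synthase, stood at -0.14 (SE 0.14), opr3, the oxophytodienoate reductase of the last steps, at -0.14 (SE 0.10) and Lox1, a lipoxygenase, at -0.06 (SE 0.13). NtJAZ2, a repressor of jasmonate signalling, stood at 0.23 (SE 0.15, edgeR adjusted p = 0.628) and had an r of -0.54 with KED. Without CK replicate 3 this r was stronger, at -0.88, and over the 9 transgenic libraries it was -0.86.

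All 11 tested genes of ethylene synthesis and response factors stood below 0, with a median of -0.23. This counts acs2, which was placed in the list by its symbol alone and is itself at the median; without it 10 of 10 stood below 0, with a median of -0.28. Ethylene response factors are transcription factors that act downstream of ethylene and stress signals. NtERF#111 had 104, 128 and 105 counts in P2.4a, 147, 94 and 145 in P3.9a, 114, 112 and 58 in P9.10a and 163, 165 and 216 in CK. In CPM 8 of 9 transgenic libraries lay below CK, and the difference was -0.64 (SE 0.17, edgeR adjusted p = 0.153). NtERF#193 stood at -0.69 (SE 0.20, edgeR adjusted p = 0.203). Without CK replicate 3 the differences were -0.44 for NtERF#111 and -0.48 for NtERF#193. The r of the list with KED ran from 0.24 (ACO) to 0.73 (acs2) among its members with a mean log2 CPM of 1 or more. These values leaned on CK replicate 3: without it r was -0.08 for NtERF3b, 0.02 for NtERF#205, 0.09 for NtERF#229, 0.19 for EREBP-3 and 0.25 for NtERF#193, and 0.57 for ACO. Over the 9 transgenic libraries r was -0.28 for NtERF3b, -0.08 for NtERF#193 and -0.06 for EREBP-3. ACO, of the last step of ethylene synthesis, stood at -0.08 (SE 0.25).

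Among wound and defence products TIMPb alone came near KED in size. It stood at -0.76 (SE 0.26, edgeR adjusted p = 0.291), and at -0.43 without CK replicate 3. In CPM 8 of 9 transgenic libraries were below CK, with a median of 4.69 CPM in the transgenic libraries (3.08 to 8.24), against 6.83 to 12.4 CPM in CK. The other 6 tested products had differences of -0.17 to 0.15: palA, palB, pal4 and NtPAL, phenylalanine ammonia-lyases at the entry of phenylpropanoid synthesis, ODC, the ornithine decarboxylase of putrescine synthesis, and CHN50, a chitinase. The second gene of this list by p was palA (-0.17, SE 0.14, edgeR adjusted p = 0.682).

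The list of calcium sensors, which by symbol also took in CaMBP and CIPK14, had a median near 0. It was -0.05 over 13 tested genes, with 4 above 0 and 9 below. CaMBP, a calmodulin-binding protein, stood at -0.56 (SE 0.21, edgeR adjusted p = 0.328), with 10.0 to 21.6 CPM in the transgenic libraries and 19.1 to 23.9 CPM in CK. CDPK15, a calcium-dependent protein kinase, stood at 0.21 (SE 0.10, edgeR adjusted p = 0.471) and had an r of -0.76 with KED, which was -0.75 without CK replicate 3.

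**Figure D4:**
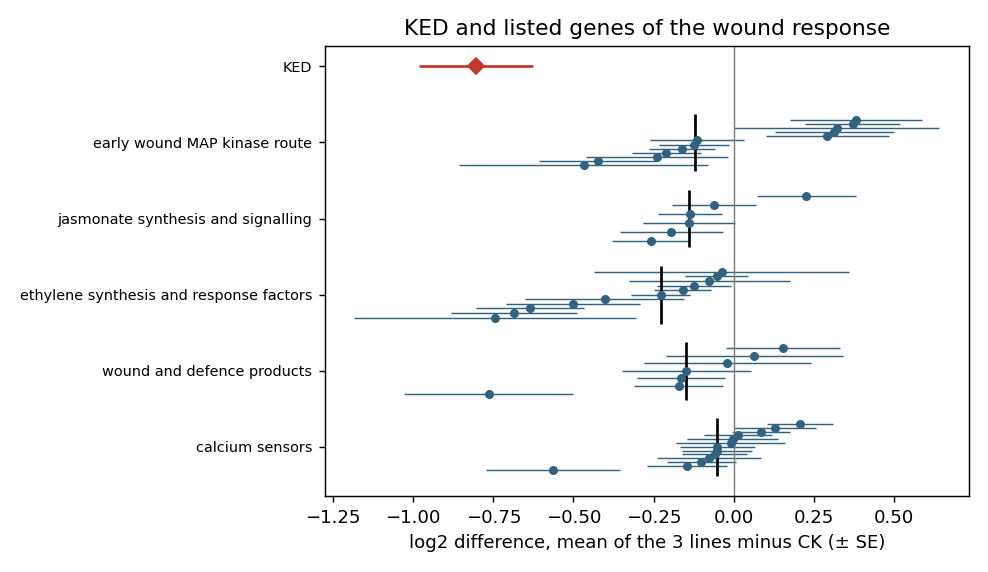
Log2 difference in the mean of the 3 lines minus CK (x axis, ± SE) for KED (diamond) and for the 49 other tested genes of the wound response, by list (y axis); each point is a gene and black bars are list medians. KED lies at -0.80 and the list medians between -0.23 and -0.05.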

How the data were processed

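The authors deposited raw counts per gene, as whole numbers, in 1 table for the 12 libraries. Per the submitters' processing notes the tools were bedtools 2.25.0, HISAT2 2.1.0 and SAMtools, and per the labels' protocols the library kit keeps strand. The sources used here do not give the genome build, annotation or counting rule, so coordinates are not printed. Gene names come from a reference gene table of assembly ASM71507v2, which held 49014 of the 61526 identifiers. No protein or promoter sequence was used here, so the planned search for proteins like KED was not made.

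Counts were fitted with edgeR 4.0.16 in R 4.3.3 (TMM scaling, filterByExpr with a minimum count of 10, robust quasi-likelihood, 1 mean per group, 39207 genes tested, Benjamini-Hochberg adjustment at 0.05 over all of them). The fit was also run on simulated counts, drawn with no library standing apart as P3.9a replicate 1 and CK replicate 3 do here. DESeq2 1.42.0, limma 3.58.1, DESeq2 size factors, no filter, a replicate block and leaving out libraries were alternatives. Profiles use log2 CPM with a prior count of 2. Further views of likeness (without CK replicate 3, over the transgenic libraries, and without the libraries farthest from the KED median) were added after seeing the data.

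The gene and the lists were chosen with earlier results of these data known. List members were matched by symbol; PPO was left out because its other names are those of protoporphyrinogen oxidase, and the markers rbcS, CBTS, CYC-1, CYP71D16, CYCA and LTP1 had no match. Named genes are the 6 most like KED by each measure, the 4 highest with a symbol, the 2 with the smallest p in each list, any that pass, and both neighbours; listed genes beyond these were named for their roles. The closest pair of libraries had a chi-square of 5.09 per degree of freedom, and 0 pairs were identical. The labels give biological replicates and do not say how many plants each holds, so p-values measure the spread between these samples. Intervals on counts cover counting error only.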

Additional observations from a re-analysis of the deposited data

How the results depend on the processing

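As every transgenic library lay below every CK library, leaving out libraries could hardly reverse the sign, so its stability is no test. The KED difference kept its sign under every alternative run. In the mean of the 3 lines it was -0.80 with DESeq2 size factors, DESeq2 or a replicate block, -0.81 with no filter and -0.79 in limma, and with 1 library left out it lay between -0.93, when that was CK replicate 1, and -0.54, when it was CK replicate 3. Leave-one-out ranges were -0.93 to -0.44 in P2.4a, -1.04 to -0.65 in P3.9a and -0.97 to -0.54 in P9.10a. KED passed the F test among the 3 lines in no fit; the difference of P2.4a minus P3.9a printed with it ran from -0.02 without P2.4a replicate 1 (the value that changed sign, -0.017) to 0.41 without P2.4a replicate 3; the cause was not tested.

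The number of genes passing in the mean of the 3 lines was 15; it was 82 with no filter, 449 in DESeq2, 9 in limma, 4 with the replicate block, 36 without both P3.9a replicate 1 and CK replicate 3, and from 6 (without CK replicate 1) to 740 (without P3.9a replicate 1) with 1 library left out. Among the lines it was 3, against 46 in DESeq2, with 2 to 6 when 1 library was left out. Listed wound genes that passed numbered 0 to 2 when 1 library was left out. The cause of these shifts was not tested. Whether same-numbered replicates share more than a number is not known. Of 18 same-number pairs 4 had a correlation of deviations over 0.1, and 3 of 12 libraries matched best with their own number.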
